A study of Mus musculus with 6 samples.

Results

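The genes of potassium channels and voltage-gated calcium channels were followed in the aorta of Apoe-/- mice given erythropoietin (EPO) or saline. Members were chosen by symbol, as mouse genes named Kcn (the antisense RNA Kcnq1ot1 left out), Cacna1, Cacna2d or Cacnb, and 116 of the 47643 genes counted carried such a name, 98 potassium channel and 18 calcium channel genes. Of these, 65 had a mean of at least 0.5 CPM (a count scaled to a library total of 1e6) over the 6 libraries and are described here. All 6 libraries came from the entire aorta of Apoe-/- mice, which lack apolipoprotein E and develop raised plasma cholesterol. The EPO group (3 libraries) had recombinant human EPO injected into the peritoneum, 5000 IU per kg daily, for 4 weeks, and the Vehicle group (3 libraries) received saline by the same route for 4 weeks; the sources used here give neither age nor sex. Wild-type mice were not analysed here, so every value was measured on the Apoe-/- background. The labels do not state that each library came from a separate animal, so p-values rest on library-to-library spread, which may be technical.

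Smooth muscle of the arterial wall contracts when calcium enters through L-type calcium channels, which open as the membrane depolarises. Potassium channels work against this: potassium leaving the cell holds the membrane negative and keeps calcium channels shut. The opposing channels in the arterial wall include large-conductance calcium-activated (BK) channels, voltage-gated (Kv) channels, the ATP-sensitive inward rectifier and two-pore-domain leak channels. Most are built from a pore subunit, which conducts the ion, and accessory subunits, which set its gating and its amount in the membrane.

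Total counts ran from 23278649 to 38502430 per library, so that a gene with 0 counts could lie at up to 0.0779 CPM in the deepest and up to 0.129 CPM in the shallowest library (3 counts, counting error only). All levels below are CPM scaled by TMM factors, which lay between 0.932 and 1.04. Smooth muscle markers were abundant in all libraries, and the sum over 10 of them (Acta2, Myh11 and others) was 31600, 22400 and 26800 CPM in Vehicle 1, 2 and 3 and 7960, 9380 and 11000 CPM in EPO 1, 2 and 3, with 8 of the 10 lower. The median log2 fold change of the 10 was -1.49, and Cald1 and Des were not called (-0.91 and 0.19). The part of smooth muscle RNA in the channel results was not tested. Libraries also differed in markers of other cells. Fibroblast markers (6 genes, Col1a1 and Lum higher) summed to 5910, 7380 and 6530 CPM in Vehicle and 29200, 26300 and 32900 CPM in EPO, without overlap. Most of that rise was Col1a1, with means of 3440 CPM in Vehicle and 25700 CPM in EPO. The median log2 fold change of the 6 was 0.44, and Pdgfra, Dpt, Dcn and Pi16 were not called (0.4, 0.47, -0.13 and -0.28). The part of fibroblast RNA in the channel results was not tested. The sum over 10 skeletal muscle genes was 26.8 to 48.4 CPM in Vehicle and 1190, 2800 and 336 CPM in EPO 1, 2 and 3, with 9 of the 10 higher and none at 0 in any library. Macrophage markers (7 genes, 1 of them higher) summed to 1310, 2560 and 2700 CPM in Vehicle and 5420, 3280 and 2930 CPM in EPO. Neuron markers (11 genes, 8 tested) summed to 31.1, 19.5 and 249 CPM in Vehicle 1, 2 and 3 and to 32 to 39.5 CPM in EPO. In edgeR 1 was higher and 0 lower, with a median log2 fold change of -4.15. At an unadjusted p under 0.05, 5 were lower, and 4 were called lower in DESeq2 and 0 in limma-voom. Chat, which marks cholinergic neurons, had 1 count in all. Slc5a7, the choline transporter and the neuron marker called higher, had 0 counts in Vehicle and 312 in EPO (edgeR adjusted p = 0.00407). In whole-tissue RNA, fewer cells of a type and less RNA per cell cannot be told apart.

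Channel genes were lower with EPO more often than higher. Of 65 described members, 64 passed the filter on low counts and were tested, and 22 were lower (34.4%, against 10.1% of all 16522 genes tested) and 11 higher (17.2%, against 12.9% of all genes) by the quasi-likelihood test of edgeR (Benjamini-Hochberg adjusted over all genes, threshold 0.05). Their median log2 fold change was -0.43, beside 0.0113 over all genes tested. EPO libraries all lay below Vehicle libraries for 28 members and all above for 14, where 21% and 22.9% of all genes did so. A member can enter the 65 through 1 group alone, and then has to differ. Of the 55 members with a group mean of at least 0.5 CPM in both groups, 21 were lower (38.2%) and 6 higher (10.9%). The other 10 reached that level in EPO alone (Cacna1s, Kcna7, Kcnc1, Kcng2, Kcns1 and Kcna3) or in Vehicle alone (Cacna2d2, Cacna2d4, Kcnk1 and Cacna1b). The nearest members above the threshold were Kcns1, Cacna1b and Kcnk1 (0.569, 0.623 and 0.632 CPM over the 6 libraries), and the nearest below were Kcnh3, Cacna1i and Cacna1e (0.483, 0.461 and 0.447 CPM). Without Vehicle 1, 14 members were lower and 6 higher. Over all genes, 699 were lower and 936 higher in that fit, against 1671 and 2133 with every library. Without Vehicle 2 and without Vehicle 3 the higher members numbered 6 and 7, beside 1075 and 1379 of all genes. All of these members were among the 22 and 11. A fit with EPO 1 and EPO 2 both left out (the libraries with most skeletal muscle counts) keeps EPO 3 as the only EPO library.

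**Figure D1:**
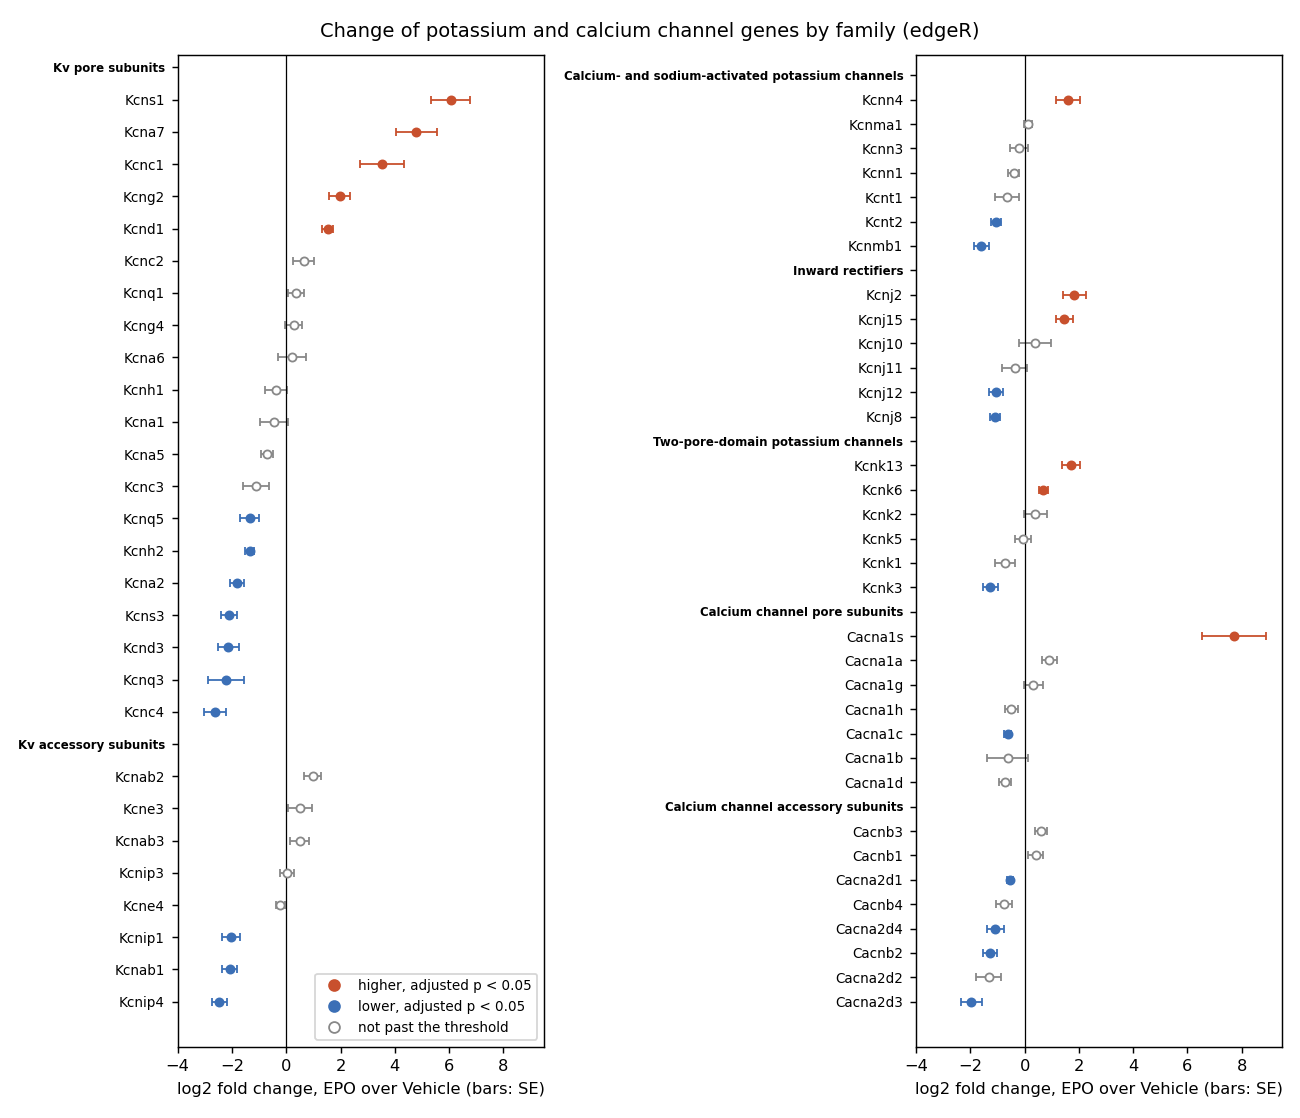
Fitted log2 fold change of 62 tested members, EPO over Vehicle, with its standard error as a bar, grouped by family. Filled points passed an adjusted p of 0.05 (red higher, blue lower), and most filled points among Kv pore, Kv accessory and calcium channel accessory subunits lie to the left of 0.

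By family, 9 of 22 tested Kv pore subunits were lower and 5 higher, where 10.1% and 12.9% of all genes tested were. Of the higher ones, Kcna7, Kcnc1, Kcng2 and Kcns1 entered the described members through EPO alone, and Kcnd1 had at least 0.5 CPM in both groups. Cacna1s, the higher calcium channel pore, also entered through EPO alone, and Cacna2d4, a lower accessory subunit, through Vehicle alone. Of 8 Kv accessory subunits 3 were lower and 0 higher in edgeR (1 was higher at an unadjusted p under 0.05, and 1 and 0 in DESeq2 and limma-voom). Calcium- and sodium-activated channels had 2 lower and 1 higher of 7, inward rectifiers 2 and 2 of 6, and two-pore-domain channels 1 and 2 of 6. Calcium channel pore subunits had 1 lower and 1 higher of 7, while of 8 calcium channel accessory subunits 4 were lower and 0 higher in edgeR (1 was higher at an unadjusted p under 0.05, and 0 in DESeq2 and in limma-voom).

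Levels of different genes were set side by side per kilobase of exon. In Vehicle the order opened with Kcnmb1 (45 CPM per kb), Kcnh2 (37.3), Kcnj8 (29.2), Kcnk3 (28.4), Kcne4 (16.3) and Kcnab1 (14.5). In EPO it opened with Kcnj15 (19.8 CPM per kb), Cacnb3 (17.5), Kcnmb1 (14.9), Kcnh2 (14.6), Kcne4 (14) and Kcnj8 (13.8). Kcnab1, at 3.4 CPM per kb in EPO, was no longer among the first 7. Summed over all described potassium channel genes, the level was 1200, 1020 and 1080 CPM in Vehicle 1, 2 and 3 and 677, 675 and 700 CPM in EPO 1, 2 and 3. Calcium channel genes summed to 321, 267 and 279 CPM and to 281, 268 and 231 CPM, so the groups overlapped in calcium but not in potassium channel sums. The share of Kv pore subunits in all counts of described members was 25.1% to 29.2% in Vehicle and 17.1% to 18.1% in EPO, and that of inward rectifiers was 9.15% to 9.67% and 13.3% to 21.8%.

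The accessory subunit of the BK channel fell while its pore subunit did not pass the test. Smooth muscle markers had a median log2 fold change of -1.49 in the same libraries, and their part in this was not tested. Kcnmb1 (ENSMUSG00000020155, GRCm38 chromosome 11, 33963013 to 33973641), the smooth muscle beta subunit that makes BK channels more sensitive to calcium, stood at 225, 154 and 186 CPM in Vehicle 1, 2 and 3 and at 41, 61.9 and 84.8 CPM in EPO 1, 2 and 3. Every EPO library lay below every Vehicle library, and the fitted level was 3.01-fold lower (log2 fold change -1.59, SE 0.27, edgeR adjusted p = 0.00775; 188 ± 35.5 and 62.6 ± 21.9 CPM, SD, n = 3 each). With EPO 1 and EPO 2 left out its adjusted p was 0.0529. Kcnma1 (chromosome 14, 23289431 to 24014491), the pore, was at 18.3, 16 and 16.7 CPM in Vehicle and 20.6, 18.4 and 16.8 CPM in EPO. These values overlapped (log2 fold change 0.13, SE 0.14, edgeR adjusted p = 0.523). Among the other beta subunits, Kcnmb4 and Kcnmb3 averaged 0.0732 and 0.0253 CPM over the 6 libraries and Kcnmb2 had 0 counts, each under the level that 3 counts allow in the deepest library. Kcnt2, a sodium-activated channel, went from 14.6, 13.4 and 13.5 CPM to 6.14, 5.5 and 8.27 CPM and was 2.09-fold lower (edgeR adjusted p = 0.00931). Kcnn1 and Kcnn3, small-conductance calcium-activated channels, and Kcnt1 did not pass (log2 fold changes -0.40, -0.21 and -0.65).

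The L-type pore subunit of smooth muscle was modestly lower. Cacna1c (ENSMUSG00000051331, chromosome 6, 118587240 to 119196418), the main route of calcium entry in arterial smooth muscle, stood at 65.5, 57.7 and 55.3 CPM in Vehicle and 39.3, 42.7 and 34.5 CPM in EPO. The groups did not overlap, and the fitted level was 1.53-fold lower (log2 fold change -0.62, SE 0.13, edgeR adjusted p = 0.015), though without Vehicle 1 the adjusted p was 0.0584. Cacna1d, a second L-type pore, was at 16.6, 11.5 and 13.6 CPM and at 10.7, 7.98 and 6.49 CPM (log2 fold change -0.73, SE 0.23, edgeR adjusted p = 0.0605). It passed with DESeq2 (adjusted p = 0.0207), and 4.7% of its exon bases are shared with Chdh on the opposite strand, which cannot be told apart where the strand setting is unknown. The T-type pores Cacna1h and Cacna1g, which open at more negative voltages, had log2 fold changes of -0.50 and 0.32 and did not pass. Cacna1a, the pore of P/Q-type channels best known from nerve terminals, was at 9.73, 7.5 and 8.25 CPM in Vehicle and 23.3, 12.5 and 12.2 CPM in EPO (a log2 fold change of 0.91, SE 0.28, edgeR adjusted p = 0.0524; DESeq2 0.0138). Cacna1b, the N-type pore of neurons, had 1.73 CPM in Vehicle 3, the library with 249 CPM of neuron markers, and 0.233 to 0.541 CPM in the other 5; the part of neuron RNA in this was not tested.

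Of the calcium channel accessory subunits, Cacnb2, Cacna2d1, Cacna2d3 and Cacna2d4 fell. Cacnb2 (chromosome 2, 14603088 to 14987908), a cytoplasmic beta subunit that brings pore subunits to the membrane, went from 19.7, 13.3 and 15.7 CPM to 4.55, 6.93 and 8.75 CPM and was 2.41-fold lower (edgeR adjusted p = 0.0161, log2 fold change -1.27, SE 0.27; adjusted p = 0.0659 without Vehicle 1). Cacnb3, another beta subunit, stood at 56.7, 39 and 43.8 CPM in Vehicle and at 91, 53.3 and 66.7 CPM in EPO. EPO 2 lay inside the Vehicle range, and the difference did not pass (log2 fold change 0.60, SE 0.22, edgeR adjusted p = 0.0945). Cacna2d1 (chromosome 5, 15934691 to 16374511), an alpha2delta subunit that raises the number of channels at the surface, was at 102, 107 and 103 CPM and at 70.7, 79.6 and 64 CPM. Its fall was small as a fold change (1.45-fold, edgeR adjusted p = 0.0191) but large beside the spread of its groups, which did not overlap (104 ± 2.49 and 71.4 ± 7.83 CPM, SD, n = 3 each). It missed the threshold without Vehicle 1, Vehicle 2, Vehicle 3 or EPO 3 (adjusted p from 0.055 to 0.063). Cacna2d3, of the same family, fell 3.88-fold, from 4.87, 4.12 and 5.52 CPM to 0.753, 1.05 and 1.92 CPM (edgeR adjusted p = 0.0114). Cacna2d4 fell 2.11-fold at under 1 CPM (edgeR adjusted p = 0.0448) and missed the threshold without any single library (adjusted p from 0.0684 to 0.15). Cacna2d2, Cacnb4 and Cacnb1 were not called (log2 fold changes -1.32, -0.77 and 0.41).

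**Figure D2:**
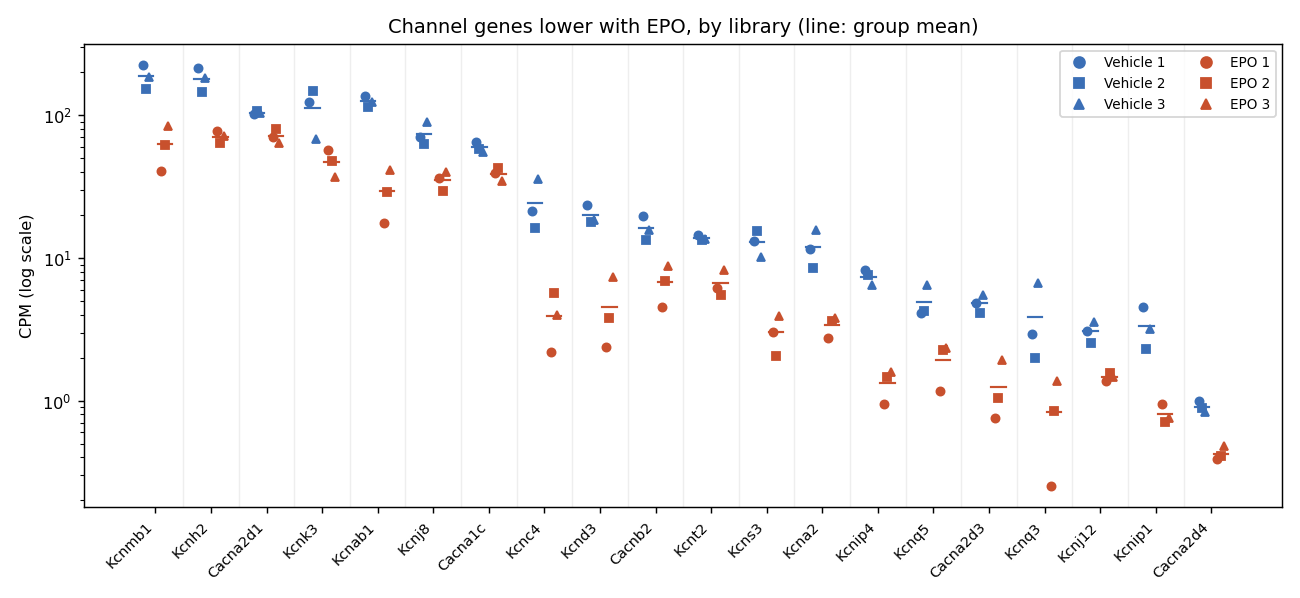
CPM on a log axis of 20 members lower with EPO, 1 point per library and a line at each group mean, ordered by level. In Kcnmb1, Kcnab1 and Kcnd3 EPO 1 was the lowest and EPO 3 the highest of the EPO libraries, and for all 20 genes every EPO point lies below every Vehicle point.

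Among Kv pore subunits, the ERG channel and a Kcnq channel fell. Kcnh2 (ENSMUSG00000038319, chromosome 5, 24319589 to 24351604), the ERG channel that repolarises heart muscle, stood at 213, 145 and 184 CPM in Vehicle and 77.7, 63.8 and 71.3 CPM in EPO. The EPO libraries lay close together and below Vehicle (2.55-fold lower, log2 fold change -1.35, SE 0.17, edgeR adjusted p = 0.00313), and the call held with each library left out (adjusted p at most 0.0142). Cardiac markers (7 genes, 0 of 6 tested called in either direction by edgeR, DESeq2 or limma-voom and 0 at an unadjusted p under 0.05) summed to 135, 21.7 and 49.3 CPM and to 32.7, 73.7 and 21.8 CPM in the same libraries; the part of heart muscle RNA in the level of Kcnh2 was not tested. Kcnq5, a slowly opening Kv channel, was at 4.13, 4.24 and 6.42 CPM and at 1.17, 2.27 and 2.34 CPM (2.56-fold lower, edgeR adjusted p = 0.0289), but missed the threshold without any 1 of the 3 Vehicle libraries or without EPO 2 (0.0574 to 0.0881). Kcnq1, of the same family and best known from heart, did not pass (log2 fold change 0.35, edgeR adjusted p = 0.428); it shares 121 exon bases with Kcnq1ot1 on the opposite strand.

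A silent subunit and a Kcna pore fell as well. Kcns3, a silent subunit that does not conduct on its own, went from 13.2, 15.5 and 10.1 CPM to 3.01, 2.07 and 3.94 CPM (4.29-fold lower, edgeR adjusted p = 0.00375). Its groups were well apart. Kcna2, a Kv pore of muscle and axons, was at 11.6, 8.55 and 15.7 CPM and at 2.73, 3.63 and 3.79 CPM (3.54-fold lower, edgeR adjusted p = 0.00485, and 0.0142 without Vehicle 3). Kcna5, a pore with which Kcna2 can assemble, was at 7.91, 11.7 and 10.6 CPM and at 4.69, 6.79 and 6.85 CPM. Its groups did not overlap, but edgeR gave an adjusted p of 0.0614 (log2 fold change -0.72, SE 0.23) and DESeq2 0.0218.

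Among fast Kv channels, Kcnc4 fell 6.21-fold, the most of any member (log2 fold change -2.63, SE 0.41, edgeR adjusted p = 0.00571). It stood at 21.3, 16.2 and 35.7 CPM in Vehicle and 2.2, 5.67 and 3.97 CPM in EPO (24.4 ± 10.1 and 3.95 ± 1.73 CPM, SD, n = 3 each). Vehicle 3, high in neuron markers, was the highest, and without it the log2 fold change was -2.25 (adjusted p = 0.0146). Kcnd3 (chromosome 3, 105452330 to 105674002), a pore of the transient A-type current, went from 23.4, 17.9 and 18.4 CPM to 2.37, 3.8 and 7.33 CPM (4.42-fold lower, edgeR adjusted p = 0.00905). Among the cytoplasmic KChIP proteins that partner A-type pores, Kcnip4 and Kcnip1 fell. Kcnip4 went from 8.21, 7.58 and 6.42 CPM to 0.948, 1.46 and 1.59 CPM (5.55-fold lower, log2 fold change -2.47, SE 0.27, edgeR adjusted p = 0.00258) and Kcnip1 from 4.52, 2.29 and 3.17 CPM to 0.948, 0.713 and 0.752 CPM (4.11-fold lower, edgeR adjusted p = 0.00721), while Kcnip3 did not pass (log2 fold change 0.01) and Kcnip2, at 0.274 CPM, was not tested. Kcnmb1 lies within the span of Kcnip1 on chromosome 11 with no exon base shared, and Kcnip4 shares 168 exon bases with 5730480H06Rik on the opposite strand. Kcnq3, a pore of the neuronal M current, was at 2.95, 1.98 and 6.66 CPM and at 0.251, 0.849 and 1.38 CPM; its call (edgeR adjusted p = 0.0494) was lost without any single library but EPO 3 (0.0618 to 0.147).

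Kv accessory subunits differed among themselves. Kcnab1 (ENSMUSG00000027827, chromosome 3, 65109384 to 65378223), a cytoplasmic beta subunit of Kv channels that speeds their inactivation, stood at 137, 115 and 124 CPM in Vehicle and 17.7, 29 and 41.1 CPM in EPO. That was a 4.27-fold fall, with the lowest EPO level in EPO 1 (edgeR adjusted p = 0.00374, log2 fold change -2.09, SE 0.28). Kcnab2, a beta subunit also found in leukocytes, was at 13.6, 17.5 and 23.2 CPM and at 51.8, 26.2 and 28.3 CPM, with EPO 1 far above EPO 2 and EPO 3 (log2 fold change 0.97, edgeR adjusted p = 0.0575; DESeq2 0.016). EPO 1 also had the most macrophage marker counts (5420 CPM), and their part in Kcnab2 was not tested. Kcne4, a small membrane subunit of Kcnq and Kcna channels, was at 43.5, 40.8 and 45.9 CPM and at 44.6, 28.7 and 38.2 CPM, which overlapped (log2 fold change -0.22, SE 0.17, edgeR adjusted p = 0.38).

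The ATP-sensitive channel and the leak channel of arterial muscle were lower. Kcnj8 (ENSMUSG00000030247, chromosome 6, 142564837 to 142571614), the vascular pore of the ATP-sensitive channel, stood at 70.4, 62.7 and 90.1 CPM in Vehicle and 36.1, 29.4 and 39.8 CPM in EPO (2.12-fold lower, edgeR adjusted p = 0.0065, log2 fold change -1.08, SE 0.18; adjusted p = 0.0788 with EPO 1 and EPO 2 left out). Kcnj11, the pore used in heart and pancreas, was at 0.721 to 2.56 CPM over the 6 libraries and did not pass (log2 fold change -0.37). Kcnk3 (chromosome 5, 30588170 to 30625271), an acid-sensitive leak channel that sets resting potential, went from 123, 147 and 68.5 CPM to 56.9, 47.6 and 36.7 CPM. Vehicle 3 and EPO 1 lay close together, and the 2.4-fold fall (edgeR adjusted p = 0.021) missed the threshold without Vehicle 1, Vehicle 2, EPO 2 or EPO 3 (0.0584 to 0.0702). Fat markers moved in the same libraries: 6 brown adipocyte genes summed to 1300, 1750 and 540 CPM in Vehicle and 747, 592 and 345 CPM in EPO, 2 of them lower, and 6 white adipocyte genes to 2970, 4960 and 1930 CPM and to 1340 to 1470 CPM, 4 of them lower. Kcnk3 ran in the same order as both the brown and the white adipocyte sums within each group (white 1470, 1360 and 1340 CPM in EPO 1, 2 and 3). The part of fat in its fall was not tested. Kcnj12, a classical inward rectifier, fell from 3.09, 2.53 and 3.55 CPM to 1.37, 1.56 and 1.47 CPM (2.08-fold, edgeR adjusted p = 0.0262), and missed the threshold without any single library but EPO 1 (0.0514 to 0.0852).

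The 11 higher members were highest in different libraries. Cacna1s (ENSMUSG00000026407, chromosome 1, 136052750 to 136119822), the skeletal muscle L-type pore that acts as voltage sensor for Ryr1, was counted 3 times in Vehicle libraries and 852 times in EPO libraries, 224 times as often per depth (95% counting interval 76.4 to 1090). That interval pools the counts of each group and leaves out the spread between libraries, and Cacna1s is described through EPO alone. It had 6.78, 18.5 and 1.92 CPM in EPO 1, 2 and 3 (edgeR adjusted p = 0.00524). Kcna7, known from skeletal muscle and heart, had 9 counts in Vehicle and reached 2.54, 5.53 and 1.92 CPM in EPO (27.6-fold higher, edgeR adjusted p = 0.00596). Kcnc1, a fast Kv pore, was at 0.174, 0.194 and 0.345 CPM in Vehicle and 1.78, 5.91 and 0.752 CPM in EPO (11.4-fold higher, edgeR adjusted p = 0.022). All 3 ran in the order EPO 2, EPO 1, EPO 3, that of the skeletal muscle markers (2800, 1190 and 336 CPM), whose part in these rises was not tested. With EPO 1 and EPO 2 left out the adjusted p was 0.0277 for Cacna1s, 0.057 for Kcna7 and 0.171 for Kcnc1, and Kcnc1 also missed the threshold without Vehicle 1, Vehicle 2 or Vehicle 3 (0.051 to 0.088).

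Inward rectifiers rose at the same time as Kcnj8 and Kcnj12 fell. Kcnj15 (ENSMUSG00000062609, chromosome 16, 95257558 to 95300260) stood at 60.4, 45.9 and 30.1 CPM in Vehicle and 80.2, 153 and 141 CPM in EPO (2.75-fold higher, edgeR adjusted p = 0.0171, log2 fold change 1.46, SE 0.32; adjusted p = 0.0616 without Vehicle 2). It had the highest level per kilobase of any member in EPO. Kcnj2, the strong rectifier that stabilises resting potential in muscle and endothelium, went from 2.39, 3.62 and 3.14 CPM to 5.41, 17.1 and 10.2 CPM (3.57-fold higher, edgeR adjusted p = 0.0198). EPO 2 was its highest library, and without Vehicle 1, Vehicle 2 or Vehicle 3 the adjusted p was 0.0553 to 0.0841. The call of Kcnj2 was also lost in limma-voom. With EPO 1 and EPO 2 left out Kcnj15 and Kcnj2 kept log2 fold changes of 1.64 and 1.75 (adjusted p = 0.0492 and 0.0294).

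Kcnn4 (ENSMUSG00000054342, chromosome 7, 24370263 to 24386690), the intermediate-conductance calcium-activated channel of endothelium, leukocytes and dividing smooth muscle, stood at 8.34, 13.8 and 16.4 CPM in Vehicle and 67.7, 27.1 and 23 CPM in EPO. It was 3.05-fold higher (edgeR adjusted p = 0.038, log2 fold change 1.61, SE 0.44), with most of the rise in EPO 1, without which the log2 fold change was 0.95 (adjusted p = 0.0526). The call was also lost without Vehicle 1, Vehicle 2 or Vehicle 3 (0.0614 to 0.129) and in limma-voom (0.0637). Over the 6 libraries Kcnn4 ran in the same order as the macrophage marker sum. The largest part of that sum was Lyz2, with means of 1710 CPM in Vehicle and 2930 CPM in EPO. Of the single markers Cd68 ran in that order, and Lyz2, Adgre1, Csf1r, Cd14, Itgam and Mrc1 did not. Itgam, for example, was highest in EPO 3 (51.1 CPM). Kcnk13, a leak channel of macrophage-like cells of the brain, was at 2.78, 5.29 and 4.73 CPM and at 19.6, 11.5 and 10.6 CPM (3.25-fold higher, edgeR adjusted p = 0.0118). Kcnk6, a weakly rectifying leak channel, was at 15.5, 18.7 and 18.1 CPM and at 33.5, 26.2 and 24.8 CPM (1.61-fold higher, edgeR adjusted p = 0.0204; 0.0551 to 0.0895 without 1 Vehicle library). Kcna3, the Kv channel of T cells and activated macrophages, fell below the filter on low counts, with 5 in Vehicle and 158 in EPO, with 3.79 CPM in EPO 1 and 0.373 and 0.331 CPM in EPO 2 and EPO 3. With no filter its log2 fold change was 4.49 (edgeR adjusted p = 0.00827), and it was also called higher when EPO 3 was left out. All 4 channel genes were highest in EPO 1, and the part of macrophage RNA in them was not tested. Lymphocyte markers (5 genes) summed to 14.1, 13.7 and 20.4 CPM in Vehicle and 28.1, 17 and 33 CPM in EPO 1, 2 and 3. Their part in Kcna3 was not tested either.

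The other higher members were Kcnd1, Kcns1 and Kcng2. Kcnd1 (ENSMUSG00000009731, chromosome X, 7822289 to 7838280), an A-type pore like Kcnd3, went from 3.56, 3.19 and 3.8 CPM to 9.45, 8.96 and 11.8 CPM. It was 2.87-fold higher (log2 fold change 1.52, SE 0.20, edgeR adjusted p = 0.00331), and the call held with each library left out (adjusted p at most 0.0202). Kcns1, a silent subunit studied mostly in sensory neurons, was counted once in Vehicle libraries and 114 times in EPO libraries (ratio 89.9, 95% counting interval 15.8 to 3580). This interval also leaves out the spread between libraries, and Kcns1 is described through EPO alone. It had 1.34, 0.849 and 1.23 CPM in EPO 1, 2 and 3 (edgeR adjusted p = 0.00277). Kcng2, another silent subunit, was at 0.391, 0.467 and 0.414 CPM and at 2.31, 1.63 and 1.08 CPM (3.92-fold higher, edgeR adjusted p = 0.0121; 0.0587 without Vehicle 1 and 0.145 with EPO 1 and EPO 2 left out). Like Kcnk13, it was highest in EPO 1.

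**Figure D3:**
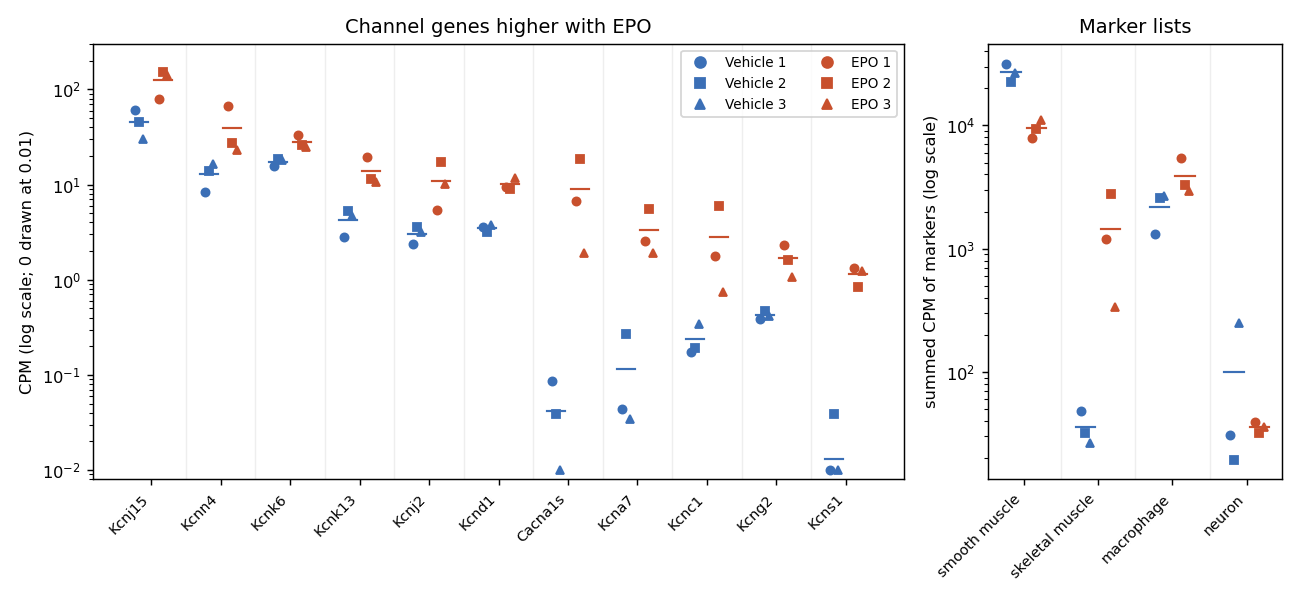
Left, CPM on a log axis of the 11 members higher with EPO, 1 point per library and a line at each group mean, with 0 drawn at 0.01. Right, summed CPM of marker lists: Cacna1s, Kcna7 and Kcnc1 are highest in EPO 2, as is the skeletal muscle sum (2800 CPM), and Kcnn4, Kcnk13 and Kcnk6 are highest in EPO 1, as is the macrophage sum (5420 CPM).

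The members not called numbered 31, with log2 fold changes from -1.32 to 0.97. Their groups overlapped in 22, EPO lay all below in 6 and all above in 3, and 8 had an unadjusted p under 0.05. Of 51 members under 0.5 CPM, 44 had at least 1 count and 7 had none in any library. Of these, 5 were tested and 0 called by edgeR, DESeq2 or limma-voom (0 at an unadjusted p under 0.05).

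Ratios between transcripts of subunits that can assemble together were compared within each library, which removes scaling between libraries. Whole-tissue RNA does not show whether both transcripts of a pair came from the same cells. The part of the mixture of cells in these ratios was not tested. The ratio of Kcnmb1 to Kcnma1 counts fell in every EPO library: its log2 value was 3.62, 3.26 and 3.47 in Vehicle and 0.99, 1.74 and 2.33 in EPO (difference -1.76). Kcnab1 to Kcna5 went from 4.1, 3.29 and 3.53 to 1.91, 2.08 and 2.57 (difference -1.45). The ratio of another pair was higher in EPO, though Cacnb3 itself was not called. Cacnb3 to Cacna1c went from -0.21, -0.56 and -0.34 to 1.21, 0.32 and 0.95 (difference 1.2). For these 3 pairs the groups did not overlap, and the two-sided exact permutation p was 0.1, the smallest that 3 against 3 libraries can give (0.25 after Benjamini-Hochberg adjustment over the 10 pairs compared), so no pair could pass a threshold of 0.05.

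For the other pairs described, the libraries of both groups overlapped. Cacna2d1 to Cacna1c was 0.64 to 0.89 in Vehicle and 0.85 to 0.9 in EPO on the log2 scale (difference 0.07). Cacna1d to Cacna1c differed by -0.12, less than the spread of libraries within the Vehicle group (SD 0.19). Abcc9 to Kcnj8 and Cacnb2 to Cacna1c had lower means in EPO (differences -0.36 and -0.67) with overlapping libraries. The exact permutation p of these 4 pairs lay between 0.2 and 0.8, which does not show that a ratio was kept.

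**Figure D4:**
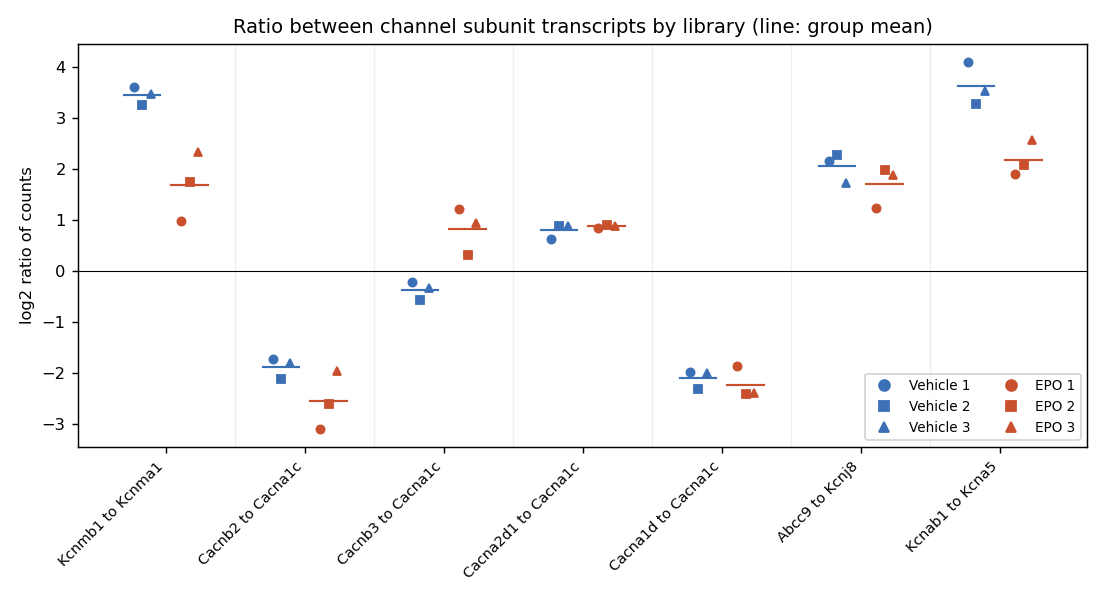
Log2 ratio of counts between paired subunits, 1 point per library and a line at each group mean (Kcnmb4 to Kcnma1 is not drawn, since Kcnmb4 averaged 0.0732 CPM). Kcnmb1 to Kcnma1 and Kcnab1 to Kcna5 are lower in all EPO libraries, Cacnb3 to Cacna1c is higher, and Cacna2d1 to Cacna1c stays between 0.64 and 0.9.

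Genes that work with these channels but carry other names were counted in 5 lists, beside 10.1% of all genes tested lower and 12.9% higher. Of 6 genes listed under cGMP signalling, which opens BK channels on nitric oxide, 5 were lower and 0 higher in edgeR (0 higher at an unadjusted p under 0.05 and 0 in DESeq2 and limma-voom). The 5 include Prkaca, a subunit of the cAMP-dependent kinase (log2 fold change -0.77, edgeR adjusted p = 0.0154). Prkg1, the cGMP-dependent kinase itself, was not called (log2 fold change -0.69, edgeR adjusted p = 0.0827). Pde5a, which breaks down cGMP, had a log2 fold change of -1.32, and Gucy1b1, a subunit of the nitric oxide receptor, -1.54 (edgeR adjusted p = 0.00277 and 0.00306). Mrvi1, the kinase substrate that restrains calcium release, was at 291, 214 and 237 CPM in Vehicle and 73.6, 94.7 and 114 CPM in EPO (log2 fold change -1.39, edgeR adjusted p = 0.00431). Among potassium channel partners 3 of 5 tested were lower and 1 higher. Abcc9, the sulphonylurea receptor that assembles with Kcnj8, went from 316, 304 and 299 CPM to 85.4, 116 and 148 CPM (log2 fold change -1.40, edgeR adjusted p = 0.00454). Amigo1, an adhesion protein that partners Kv channels, had a log2 fold change of -0.65 (edgeR adjusted p = 0.0238), and Lrrc55, a gamma subunit of BK channels, one of 1.61 at 0.583 to 3.28 CPM (edgeR adjusted p = 0.0217).

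Of 13 calcium channel partners tested, 2 were lower and 3 higher. Rrad, a small GTPase that inhibits L-type channels, went from 120, 90 and 90.1 CPM to 27.1, 40.4 and 37.8 CPM (log2 fold change -1.51, edgeR adjusted p = 0.00325), and Jph2, which ties the surface membrane to calcium stores, from 680, 433 and 542 CPM to 221, 247 and 274 CPM (log2 fold change -1.16, edgeR adjusted p = 0.00741). The higher ones were Cacng1, the gamma subunit of the skeletal muscle channel, its relative Cacng6 and the channel's adaptor Stac3 (the last pair named after their values were seen), with log2 fold changes of 6.02, 4.70 and 1.92. Each was highest in EPO 2, with 6.93, 3.43 and 11.7 CPM there.

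Calcium stores and removal had 5 lower and 5 higher of 19 tested. Atp2b4, a plasma membrane calcium pump, stood at 250, 231 and 248 CPM in Vehicle and 94.8, 108 and 107 CPM in EPO (log2 fold change -1.24, edgeR adjusted p = 0.00201), and Itpr1, the main store release channel of smooth muscle, at 163, 142 and 135 CPM and at 80.9, 76.1 and 74.1 CPM (log2 fold change -0.93, edgeR adjusted p = 0.00335). Atp2a1, the calcium pump of fast skeletal muscle, rose to 96.5, 331 and 67.8 CPM from 0.661 to 1.55 CPM (edgeR adjusted p = 0.0024); 21.9% of its exon bases are shared with Rabep2 on the opposite strand. Depolarizing channels had 3 lower and 0 higher of 6 in edgeR (1 higher at an unadjusted p under 0.05, and 0 in DESeq2 and limma-voom). P2rx1, an ATP-gated cation channel of arterial muscle, had a log2 fold change of -1.84, Ano1, the calcium-activated chloride channel, -0.92 and Trpc1 -0.83 (edgeR adjusted p = 0.00105, 0.00616 and 0.0156).

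Start regions were examined for the 3 lower and 3 higher members of smallest p that have an entry, and 4 are printed so that those of genes moving apart can be read beside each other; the windows of Cacna1s and Kcna7 hold 61 and 250 bases of annotated exon and are not printed. Each is the 250 bases before a RefSeq start site (GRCm38.p6), given 5′ to 3′ on the strand of the gene. Capitals mark matches, on either strand, to the E-box CANNTG, bound by myogenic and other basic helix-loop-helix factors, or to the AP-1 element TGANTCA, bound by Fos and Jun; the CArG box of serum response factor and the RE1 element of REST were searched too.
Kcnip4 (chr5:49285660-49285909, minus strand): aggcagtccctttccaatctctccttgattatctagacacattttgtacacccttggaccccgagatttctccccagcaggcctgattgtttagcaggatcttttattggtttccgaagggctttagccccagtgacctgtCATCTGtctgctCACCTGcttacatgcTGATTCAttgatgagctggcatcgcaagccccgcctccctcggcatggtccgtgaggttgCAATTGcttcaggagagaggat
Kcnh2 (chr5:24329592-24329841, minus strand): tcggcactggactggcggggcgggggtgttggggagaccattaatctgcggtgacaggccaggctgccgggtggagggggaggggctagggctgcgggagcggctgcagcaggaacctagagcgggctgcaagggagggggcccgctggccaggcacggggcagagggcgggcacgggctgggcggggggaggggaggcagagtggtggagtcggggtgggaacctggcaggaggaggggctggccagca
Kcnab1 (chr3:64948962-64949211, plus strand): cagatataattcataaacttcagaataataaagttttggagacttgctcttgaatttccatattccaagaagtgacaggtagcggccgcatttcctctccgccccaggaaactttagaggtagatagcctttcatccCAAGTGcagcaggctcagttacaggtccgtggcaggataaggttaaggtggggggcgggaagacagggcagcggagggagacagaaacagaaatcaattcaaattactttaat
Kcns1 (chr2:164171114-164171363, minus strand): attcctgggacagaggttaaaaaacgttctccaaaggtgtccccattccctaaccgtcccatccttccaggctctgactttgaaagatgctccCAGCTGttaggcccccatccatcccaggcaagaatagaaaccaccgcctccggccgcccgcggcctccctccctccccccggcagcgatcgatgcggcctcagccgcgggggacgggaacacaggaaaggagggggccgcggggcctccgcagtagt

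Of the 65 described members 48 had a RefSeq entry, with 75 start sites. The windows of Kcnip4 and Kcnh2 lie inside their gene models, before an internal start, and that of Kcnab1 lies upstream of the model whose coordinates are given above. Kcnab1 has 3 entries and Kcnip4 has 2, of which 1 each is printed. Another Kcnab1 entry (chromosome 3, 65108764 to 65109013) lies nearer to the start of that model and held the E-box CACGTG. The E-box was in 22 of 27 start regions of lower members (81.5%), in 8 of 8 of higher members, in 24 of 40 of members not called (60%) and in 66.2% of all 32851 start regions in the RefSeq table. The window of Cacna1s held 2 E-boxes and that of Kcna7 held 3, while Kcnh2, with 73.6% G and C, had no match to any motif. AP-1 was in 1 start region of lower members, that of Kcnip4 (6.75% of all start regions held it). No start region of a described member held a CArG box (1.47% of all) or RE1 (0.0548% of all), which says only that these letters are not in this window. Matches are a description of the letters and no evidence of binding.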

How the data were processed

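Per the labels' protocols, 6 aorta RNA libraries were made with random hexamers and the NEBNext Ultra RNA kit and sequenced in paired ends on a HiSeq; no strand marking is named. Per the submitters' processing notes the authors used CASAVA 1.8 and aligned with TopHat2 2.0.6 to mm10; for the counting tool, its strand setting and its annotation the entry is: not given in the sources used here. Raw counts per Ensembl gene were deposited by the authors, and the columns named Con were read as Vehicle. Symbols, GRCm38 coordinates and exon lengths came from GENCODE M21 (47224 of 47643 IDs matched; the others hold 0.0272% of counts).

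EPO and Vehicle were compared in R 4.3.3 with edgeR 4.0.16 (filterByExpr, TMM, glmQLFit and glmQLFTest with group alone in the model, Benjamini-Hochberg over 16522 genes, threshold 0.05). Standard errors were derived from the fold change and the F statistic. CPM uses counts over tested genes times the TMM factor; the 0.5 CPM rule uses column totals, and both scales select 65 members. Ratios have 2 counts added to each gene. The procedure was tested on simulated data. DESeq2 1.42.0, limma 3.58.1 (voom), other scalings, filters, thresholds, a replicate block and left-out libraries were tried. Named are called members, a list of vascular channels (2 members, with the subunit ratios that need them, are counted in the totals but not reported here), and up to 3 partner genes of smallest p per list; others were chosen after their values were seen. Members and lists were chosen with earlier results of these data known.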

Additional observations from a re-analysis of the deposited data

How the results depend on the processing

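All 33 called members kept their direction in each of the 14 refits that fitted them, and 19 kept their call with each of the 6 libraries left out in turn. Kcnc1, Kcns1 and Cacna2d4 were not fitted under the filter of at least 1 CPM in 3 libraries. With EPO 1 and EPO 2 both left out, where the lone EPO library is assumed to vary like the others, 5 members were higher and 10 lower, and 3 partner genes were higher and 9 lower. With single libraries left out the higher members numbered 6 to 13 and the lower members 14 to 21, and the higher partner genes 5 to 8. Over all genes the same fits called 936 to 2265 higher and 699 to 2016 lower, against 2133 and 1671 with every library. A 2-fold minimum left 11 lower partner genes. Of 31 members not called, 11 changed sign in at least 1 setting: with EPO 1 and EPO 2 out Kcnma1 was at -0.01, Cacnb1 at -0.11, Kcnq1 and Kcnj10 at -0.18 and Kcng4 at -0.06 (all log2). Kcnip3 was at -0.01 when scaled by library size and in limma-voom and at -0.02 with the replicate block. With single libraries left out the log2 fold change of Kcnip3 ran from -0.18 to 0.2, Kcnn3 from -0.58 to 0.03, Kcna6 from -0.51 to 0.58, Kcnk5 from -0.28 to 0.06, Kcnj10 from -0.04 to 1.24, Kcnh1 from -0.61 to 0.05 and Cacna1b from -1.06 to 0.97, and the difference in the ratio of Kcnmb4 to Kcnma1 from -0.21 to 0.66 and of Cacna2d1 to Cacna1c from -0.01 to 0.12. The cause of these changes was not tested. The labels do not state whether replicate numbers pair the libraries. Deviations of same-numbered libraries from their group means correlated at -0.0088, -0.0098 and 0.127, and those of other pairs at -0.101 to 0.12. With 3 libraries per group these values cannot exclude a pairing. With the replicate block 10 members were higher and 22 lower, 8 and 20 of them shared with the fit without it. Kcnc1, Kcnj2, Kcnn4 and Kcnq3 lost their call in limma-voom, and Kcnq3 and Cacna2d4 when scaled by library size. Cacna2d4 also lost its call in DESeq2 and with no filter.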
